A study of Mus musculus with 27 samples.

Results

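Keratins are the proteins of the intermediate filaments of epithelial cells, and the genes described here are the mouse keratin genes measured in the uterus of 3 kinds of mice after estradiol. Every gene whose name in the array files starts with Krt and a digit was taken, older names of the same genes included, and the keratin-associated protein genes were left out. This gave 43 keratin genes, read by 51 probes, of 27674 genes on the array. Of these, 37 had a probe that stood well above background on every array of some group and were tested, among 21871 genes tested in all. By the epithelium in which they are best known, 5 were simple-epithelial keratins, 17 squamous, 12 hair, 6 inner root sheath and 3 of other kinds.

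Keratin filaments are built from pairs of a type I (acidic) and a type II (basic) keratin, and each epithelium has its own pairs. Keratins 8 and 18 are the pair of simple, single-layered epithelia, which include the lining of the uterus. Keratins 5 and 14 mark the basal layer of stratified squamous epithelia such as those of the vagina, cervix and skin, and the hard hair keratins are best known from the hair shaft and nail.

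The uteri came from ovariectomised female mice, 8 weeks of age per the labels, which lack the ovarian source of estrogen and had rested for 1 to 2 weeks. The mice were C57BL/6 (B6), C3H/HeJ (C3H) or the F1 hybrid of the 2 strains. Each was injected intraperitoneally either with 17β-estradiol (E2) at 40 µg/kg, in saline with ethanol, or with that vehicle alone. There were 9 groups of 3 arrays: vehicle, 2 h after E2 and 24 h after E2 in each strain. When the vehicle uteri were taken is not stated in the labels. The labels name 3 animals per treatment group, without saying which animal is on which array or whether RNA was pooled, so every p-value reflects the spread of these arrays alone. In the whole uterus, more or fewer cells of a type and more or less RNA per cell cannot be told apart.

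The levels given below are log2 signals relative to the 75th percentile of the same array, so that 0 stands for a probe as bright as that percentile, and a difference of 1 is 2-fold. Between 72.4% and 79.4% of probes were well above background on an array. Replicate arrays correlated at 0.988 to 0.996 over all genes (across genes, which are not independent replicates). The number of arrays, 3 in each group, limits the precision. "Rose", "fell" and "called" mean that limma's p, adjusted by the Benjamini-Hochberg method for all genes tested, was under 0.05 in 1 fit to the 27 arrays, and each change is given with the standard error (SE) of that fit. Arrays of different groups lay on 7 slides. The E2 and vehicle groups of C3H, and the 24 h and vehicle groups of F1, shared no slide, so that slide and treatment cannot be told apart in those comparisons. The same holds for F1 at 24 h against 2 h and for F1 vehicle against B6 or C3H vehicle. Differences in response to E2 that involve C3H at either time, or F1 at 24 h, carry the same limit. The B6 24 h and vehicle groups were linked only through the 2 h arrays on their slides. C3H vehicle and B6 vehicle shared no slide either, and were linked only through the B6 arrays at 24 h and 2 h. The arrays farthest from their group means over all genes were C3H 24 h replicate 1, B6 vehicle replicate 1 and C3H 2 h replicate 1, with 489, 434 and 298 genes more than 1 log2 unit from the mean.

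At 24 h more keratins rose than fell in every strain. In B6, 27 of 37 rose and 1 fell, against 30.7% and 37.3% of all genes tested. In F1, 22 rose and 3 fell, against 31.6% and 37% of all genes, and in C3H 12 rose and 4 fell, against 27% and 40.3%. The share of keratins that rose was therefore 73%, 59.5% and 32.4% in B6, F1 and C3H. The median keratin change at 24 h was 1.80 in B6, 1.37 in F1 and 0.24 in C3H, while the median over all genes tested was -0.06, -0.04 and -0.16. The C3H count was near the background share and depended on single arrays: it ran from 11 to 17 when each array was left out in turn. With quantile normalization 16 rose and 2 fell in C3H at 24 h.

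At 2 h the balance was different. In B6, 9 keratins rose and 5 fell (background 22.7% and 34.1%), in C3H 11 rose and 8 fell (23.9% and 37.2%), and in F1 11 rose and 8 fell (22.8% and 37%). These shares of keratins that rose, 24.3% to 29.7%, lay near those of all genes. The split moved with the scaling: with each array's median in place of the 75th percentile, 12 rose and 4 fell in B6, and 12 rose and 5 fell in both C3H and F1, and with the unscaled signal 12 rose and 3 fell in both C3H and F1. The median keratin change at 2 h was 0.15, 0.16 and -0.06 in B6, C3H and F1, against -0.09, -0.13 and -0.12 over all genes.

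Of the 9 hair keratins tested, 3, 5 and 4 rose at 2 h in B6, C3H and F1, and 6, 4 and 5 at 24 h. Of the 5 simple keratins, 1 rose at 2 h in each strain while 3, 2 and 3 fell, and 4, 5 and 4 rose at 24 h. The 2 h falls of Krt20 in B6 and F1, and of Krt8 in F1, were not called with slide in the fit. Of the 16 squamous keratins tested, 2, 3 and 3 rose at 2 h, and 12, 2 and 10 rose at 24 h. Of all genes tested, 22.7% to 23.9% rose and 34.1% to 37.2% fell at 2 h, and 27% to 31.6% rose at 24 h. No test compared the classes with each other.

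**Figure D1:**
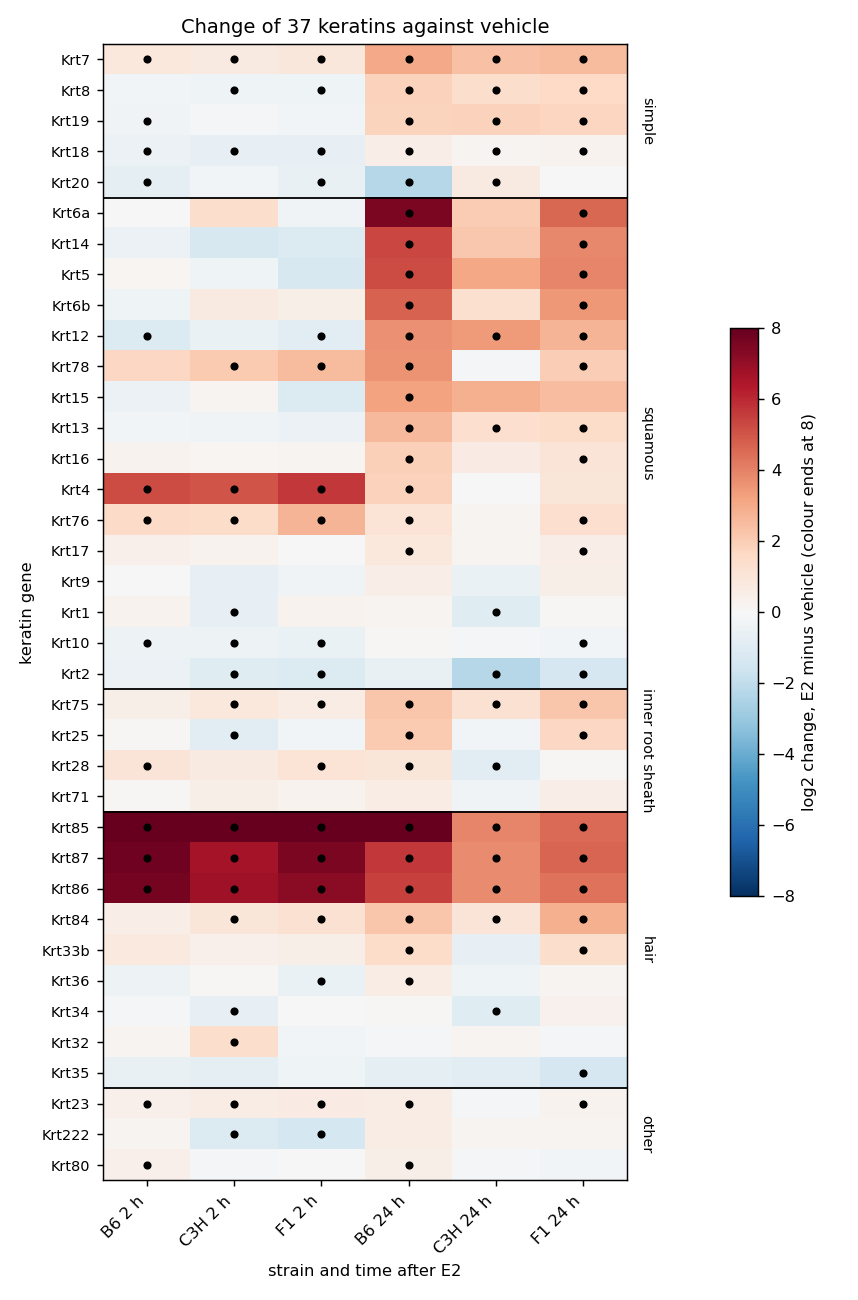
The log2 change of each of the 37 tested keratins (rows, grouped by class) after E2 against vehicle of the same strain (columns), with a dot where the adjusted p was under 0.05. The dark red rows at 2 h are Krt85, Krt86, Krt87 and Krt4, and the broad red block of squamous keratins at 24 h is seen in B6 and F1 more than in C3H.

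The largest early changes in the family were in 3 hair keratins. Krt85, a type II keratin of the hair matrix and cortex, was not well above background on any B6 vehicle array, at levels of -7.24, -7.52 and -9.34. At 2 h after E2 its B6 levels were 3.23, 3.64 and 3.38, and at 24 h they were 0.69, 0.27 and 0.64. All B6 arrays with E2 were above all those with vehicle, and the 2 h arrays were above the 24 h arrays. In C3H the Krt85 levels were -4.01, -4.65 and -4.86 with vehicle, 3.47, 3.56 and 3.42 at 2 h, and -0.53, -0.57 and -0.63 at 24 h. In F1 they were -4.69, -4.34 and -4.73 with vehicle, 3.17, 4.02 and 3.66 at 2 h, and -0.40, 0.18 and 0.10 at 24 h. The 2 h levels of the 3 strains overlapped. The B6 signal was at least 1.41e+03-fold higher at 2 h than with vehicle (adjusted p = 5.6e-16), a bound set against the dimmest probes well above background on the vehicle arrays. Krt85 rose by 7.99 (SE 0.36) in C3H and by 8.20 (SE 0.36) in F1 at 2 h, with adjusted p = 1.4e-13 and 8.7e-14. At 24 h it was still at least 191-fold higher in B6, 3.93 higher in C3H and 4.54 higher in F1 on the log2 scale. From 2 h to 24 h it fell, with changes of -2.89, -4.06 and -3.66 in B6, C3H and F1 (adjusted p = 4.3e-07, 3e-09 and 1.4e-08). Within the slides that held both groups, the 2 h change was 11.27 in B6 and 8.34 in F1, the B6 value resting on vehicle levels at background. The B6 slide held 1 array at 2 h and 3 with vehicle, and the F1 slide 3 at 2 h and 1 with vehicle. Every 2 h change within shared slides given below rests on these same arrays, so 1 side is always a single array.

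Krt86 and Krt87 are further type II hair keratins of the same cluster. Their probes are shown because they share a run of bases, printed in capitals, and because it bears on whether the 2 genes were measured apart:
Krt86: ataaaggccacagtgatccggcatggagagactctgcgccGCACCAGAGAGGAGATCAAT
Krt87: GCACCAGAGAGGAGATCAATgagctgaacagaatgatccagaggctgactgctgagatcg
The Krt86 probe lies at chr15:101463017-101463076 on the plus strand and the Krt87 probe, named Krt2-25 in the array files, at chr15:101419766-101419825 on the minus strand, both in the mouse build mm7 used by those files. The shared run is 20 bases long, at bases 41 to 60 of the first probe and 1 to 20 of the second, and no other pair of the 51 keratin probes shared 15 bases or more. The array's own annotation lists transcripts of both Krt86 and Krt87 for the Krt87 probe and of Krt86 alone for the Krt86 probe. These 2 genes are therefore uncertain as separate measurements. The Krt85 probe, at chr15:101502722-101502781 on the minus strand of mm7, shared no such run.

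Krt86 levels in B6 were -5.57, -5.86 and -5.82 with vehicle, 1.82, 2.07 and 1.88 at 2 h, and -0.17, -0.59 and -0.18 at 24 h. In C3H they were -5.01, -5.47 and -5.61, then 1.41, 1.48 and 1.36, then -1.60, -1.58 and -1.62. In F1 they were -5.36, -5.02 and -5.38, then 1.55, 2.27 and 2.16, then -1.17, -0.56 and -0.97. No array of 1 time overlapped with one of another time in any strain, and unlike Krt85 the gene was above background on every vehicle array. Krt86 rose by 7.68, 6.78 and 7.25 at 2 h in B6, C3H and F1 (SE 0.18 each, adjusted p = 9.6e-18, 4.7e-17 and 2.2e-17). At 24 h it was still 5.44, 3.76 and 4.36 above vehicle. Krt87 levels in B6 were -5.88, -6.01 and -6.47 with vehicle, 1.54, 1.78 and 1.74 at 2 h, and -0.19, -0.71 and -0.46 at 24 h. In C3H they were -5.33, -5.72 and -5.61, then 0.94, 1.17 and 1.11, then -1.70, -1.89 and -1.68. In F1 they were -5.83, -5.29 and -5.94, then 1.40, 2.10 and 1.97, then -1.31, -0.70 and -1.04. The 3 times were again apart in each strain. Krt87 rose by 7.81, 6.63 and 7.51 at 2 h (SE 0.20 each) and stood 5.67, 3.80 and 4.67 above vehicle at 24 h. Within shared slides the 2 h changes of Krt86 were 7.58 in B6 and 7.37 in F1, and those of Krt87 7.66 and 7.76.

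The other hair keratins behaved differently from these 3. Krt84, a type II keratin next to Krt85 in the cluster, had B6 levels of -4.66, -4.90 and -4.95 with vehicle, -4.74, -4.06 and -4.15 at 2 h, and -2.09, -2.81 and -2.92 at 24 h. In C3H they were -4.86, -5.46 and -4.54, then -3.80, -4.06 and -4.03, then -3.74, -4.05 and -4.06, and in F1 -5.87, -5.96 and -5.28, then -4.54, -4.46 and -4.51, then -2.88, -3.07 and -2.66. The 24 h arrays lay above the others in B6 and F1, and overlapped with the 2 h arrays in C3H. It rose by 2.23 in B6, 1.00 in C3H and 2.83 in F1 at 24 h (SE 0.24 each, adjusted p = 4.5e-08, 0.0009 and 1.5e-09), and by 0.99 in C3H and 1.2 in F1 at 2 h. Krt33b, a type I hair keratin, was not well above background on any vehicle array of B6 or F1. Its 24 h levels were -6.11, -6.34 and -6.17 in B6 and -6.19, -6.91 and -7.12 in F1, where the first alone was well above background, and it was at least 1.78-fold higher in B6 and at least 1.06-fold higher in F1 at 24 h. With slide in the fit the B6 call of Krt33b was lost (0.89, adjusted p = 0.412), and with normexp background correction so were both (0.16 and 0.02, adjusted p = 0.0862 and 0.852). Krt32 rose in C3H at 2 h, to levels of -5.75, -6.00 and -5.85, at least 2.01-fold above its vehicle arrays. Krt34 was at -6.37, -6.36 and -6.47 on the C3H vehicle arrays, -7.46, -7.06 and -6.69 at 2 h, and -7.02, -7.29 and -7.74 at 24 h. It fell by 0.67 in C3H at 2 h and was at least 1.67-fold lower there at 24 h, when no array was well above background, and Krt35 fell by 1.32 in F1 at 24 h. Krt36 rose by 0.62 in B6 at 24 h. Krt31, Krt33a and Krt82 were not tested: Krt82 was well above background on 0 of 27 arrays, Krt31 on 1 and Krt33a on 4.

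Of 10 other genes known from the hair follicle, 6 were tested, and Dsg4, Tchhl1 and Dlx3 were well above background on 0 of 27 arrays and Hoxc13 on 4. Padi3, an enzyme that modifies arginines in hair proteins, rose by 2.85, 3.53 and 3.60 at 2 h in B6, C3H and F1. Foxn1, a transcription factor of hair differentiation, rose by 1.40, 1.27 and 1.01 at 2 h, from levels near background. Tchh, which encodes trichohyalin of the inner root sheath, fell by 1.5 to 1.67 on the log2 scale at 2 h. The summed signal of the 6 tested hair follicle genes, relative to the array's percentile, was 2.12 to 2.74 on vehicle arrays, 1.64 to 2.63 at 2 h and 1.55 to 1.89 at 24 h. The brightest genes weigh most in such a sum, and the mean log2 level of these 6 genes was higher at 2 h. It went from -3.53 to -3.33 with vehicle to -3.23 to -2.97 at 2 h in B6. In C3H the ranges were -3.21 to -3.04 and -2.82 to -2.54, and in F1 -3.53 to -3.31 and -3.08 to -2.85. At 24 h it was -3.47 to -2.77 over the 3 strains. Of 27 keratin-associated protein genes, which form the matrix around hair keratins, 13 were tested, and 1, 4 and 1 rose at 2 h in B6, C3H and F1. Of all genes tested, 22.7%, 23.9% and 22.8% rose at that time.

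**Figure D2:**
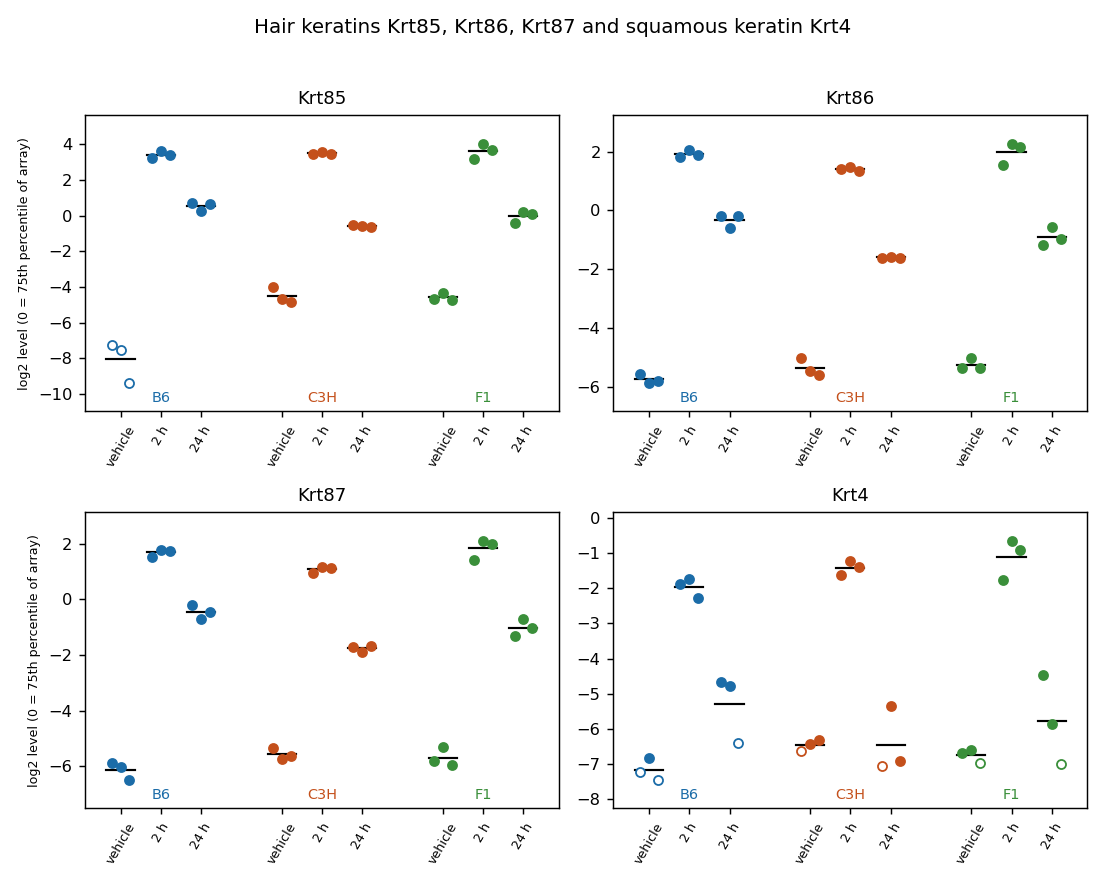
Log2 levels of Krt85, Krt86, Krt87 and Krt4 on each array (points) by strain and time, with the group mean as a bar, open points for arrays not well above background, and 0 for the 75th percentile of the array. All 4 genes are highest at 2 h in each strain, and the 3 hair keratins stay above vehicle at 24 h.

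Krt4, a type II keratin of the suprabasal cells of mucosal squamous epithelia, rose early in all 3 strains and had largely returned by 24 h. In B6 its levels were -7.22, -6.82 and -7.44 with vehicle, and -1.88, -1.75 and -2.28 at 2 h. C3H had -6.63, -6.44 and -6.31 with vehicle, then -1.63, -1.21 and -1.40. F1 had -6.68, -6.59 and -6.97 with vehicle, then -1.75, -0.65 and -0.91. On 4 of the 9 vehicle arrays Krt4 was not well above background. All 2 h arrays were above all vehicle arrays. The change was 5.19 in B6, 5.04 in C3H and 5.64 in F1 (SE 0.52 each, adjusted p = 3.4e-08, 4.7e-08 and 8.1e-09), and 5.28 in B6 and 5.87 in F1 within shared slides. From 2 h to 24 h Krt4 fell, with changes of -3.32, -5.03 and -4.67. At 24 h it was called against vehicle in B6 alone, by 1.87 (adjusted p = 0.0035), while C3H and F1 gave 0.01 and 0.97 (adjusted p = 0.98 and 0.11). Its type I partner Krt13 did not pass the test at 2 h, with changes of -0.25, -0.26 and -0.49 in B6, C3H and F1. A second Krt13 probe, which was not tested, gave -0.46, -0.05 and -1.48 at 2 h.

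Krt76 and Krt78, also type II keratins of stratified epithelia, showed smaller early changes. Krt76 went from -6.85, -7.46 and -7.33 to -5.88, -5.82 and -5.38 in B6, and from -6.91, -6.49 and -6.52 to -5.50, -4.85 and -5.14 in C3H. The groups did not overlap. It rose by 1.52 in B6 and 1.48 in C3H at 2 h (SE 0.17 each). In F1 its vehicle arrays were not well above background, at -8.0, -8.15 and -8.02, and the 2 h levels of -5.41, -5.22 and -5.31 were at least 2.85-fold higher (adjusted p = 2.3e-11). Krt78 was at -7.21, -6.87 and -7.38 on C3H vehicle arrays and at -5.31, -4.88 and -4.95 at 2 h, with 1 of the vehicle arrays well above background. It rose by 2.11 in C3H (SE 0.85, adjusted p = 0.038) and was at least 2.26-fold higher in F1 (adjusted p = 0.014), while the B6 change of 1.65 did not pass (adjusted p = 0.11). The F1 call of Krt78 was lost with slide in the fit (1.71, adjusted p = 0.187), the C3H call when any 1 array of its 2 groups was left out (adjusted p between 0.0558 and 0.0897), and both with normexp background correction (0.25 and 0.39, adjusted p = 0.328 and 0.123).

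Of the simple-epithelial keratins, Krt7, Krt8 and Krt19 rose at 24 h in all 3 strains. Krt8, the type II keratin of simple epithelia, had B6 levels of 4.47, 4.60 and 4.65 with vehicle, 4.31, 4.35 and 4.48 at 2 h, and 6.43, 6.42 and 6.42 at 24 h. In C3H they were 4.89, 4.80 and 4.75, then 4.35, 4.71 and 4.44, then 6.06, 6.26 and 6.28. In F1 they were 4.83, 4.98 and 4.65, then 4.41, 4.76 and 4.33, then 6.32, 6.51 and 6.37. The 24 h arrays lay above all others in each strain. Krt8 rose by 1.85, 1.39 and 1.58 at 24 h in B6, C3H and F1 (SE 0.11 each, adjusted p = 5.7e-12, 8.5e-10 and 7.9e-11), and its second probe gave 1.89, 1.43 and 1.58. At 2 h it fell by 0.32 in both C3H and F1, and the B6 value of -0.20 did not pass (adjusted p = 0.13). The F1 call was lost with slide in the fit (-0.15, adjusted p = 0.456), and with array medians neither was called (-0.15 in C3H and -0.17 in F1, adjusted p = 0.276 and 0.23).

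Krt18, the type I partner of Krt8, first fell and then rose by less. Its B6 levels were 6.00, 5.91 and 5.95 with vehicle, 5.31, 5.47 and 5.60 at 2 h, and 6.49, 6.37 and 6.53 at 24 h. C3H gave 6.17, 5.97 and 6.06, then 5.30, 5.58 and 5.38, then 6.23, 6.26 and 6.41, and F1 gave 6.21, 6.24 and 6.06, then 5.45, 5.75 and 5.38, then 6.43, 6.64 and 6.36. The 3 times did not overlap in any strain. Krt18 fell by 0.49, 0.64 and 0.64 at 2 h in B6, C3H and F1 (SE 0.10 each, adjusted p = 0.00031, 1.4e-05 and 1.4e-05). At 24 h it rose by 0.51, 0.24 and 0.31 (adjusted p = 0.00015, 0.046 and 0.011), but with quantile normalization these changes were 0.11, 0.05 and 0.04 and none was called (adjusted p = 0.314, 0.655 and 0.726). With slide in the fit the B6 change was 0.25 (adjusted p = 0.283).

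Krt7, a type II keratin of ductal and glandular epithelia, rose at both times. Its B6 levels were 2.88, 2.87 and 2.94 with vehicle, 3.51, 3.81 and 3.97 at 2 h, and 6.09, 5.86 and 5.79 at 24 h. In C3H they were 3.00, 2.69 and 2.86, then 3.41, 3.70 and 3.51, then 5.05, 5.26 and 5.30, and in F1 3.12, 3.09 and 2.76, then 3.81, 4.18 and 3.74, then 5.51, 5.64 and 5.45. Each time stood apart from the others in each strain. The rise was 0.87, 0.69 and 0.92 at 2 h (SE 0.13 each) and 3.02, 2.35 and 2.54 at 24 h (adjusted p = 1e-13, 9.4e-12 and 1.7e-12). Its second probe gave 3.02, 2.47 and 2.58 at 24 h. Within shared slides the 2 h rise was 0.61 in B6 and 1.15 in F1.

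Krt19, a type I keratin of simple and glandular epithelia, rose at 24 h by nearly the same amount in each strain, 1.80 in B6, 1.84 in C3H and 1.70 in F1 (SE 0.12 each, adjusted p = 3.7e-11, 5.7e-11 and 1.1e-10). The arrays behind these changes went from 3.46, 3.51 and 3.72 to 5.45, 5.35 and 5.28 in B6, from 3.12, 3.03 and 3.01 to 4.76, 5.07 and 4.85 in C3H, and from 3.46, 3.60 and 3.28 to 5.05, 5.33 and 5.05 in F1. At 2 h it fell by 0.29 in B6 (adjusted p = 0.042), with -0.09 in C3H and -0.22 in F1, which did not pass.

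Krt20, a type I keratin known from the gut and from urothelial umbrella cells, changed in opposite directions in B6 and C3H at 24 h. Its B6 levels were -2.73, -2.72 and -1.95 with vehicle and -4.25, -4.99 and -5.04 at 24 h. C3H arrays gave -4.96, -4.86 and -4.89 with vehicle and -4.12, -4.24 and -4.15 at 24 h. In F1 they were -3.51, -3.47 and -3.76 with vehicle and -3.33, -4.08 and -3.41 at 24 h. At 2 h B6 had -2.98, -3.29 and -3.37. C3H had -5.33, -5.32 and -4.72 at 2 h, and F1 had -4.35, -3.96 and -4.27. Krt20 fell at 2 h in B6 and F1, but both calls were lost with slide in the fit (-0.51 and -0.43, adjusted p = 0.252 and 0.322). Vehicle and 24 h arrays did not overlap in B6, where Krt20 was lower after E2, nor in C3H, where it was higher, and they overlapped in F1. The change was -2.30 in B6, 0.74 in C3H and -0.03 in F1 (SE 0.24 each, adjusted p = 2.7e-08, 0.0092 and 0.92). The response in C3H exceeded that in B6 by 3.04 (SE 0.33, adjusted p = 7.2e-06) and that in F1 exceeded it by 2.27 (adjusted p = 0.00085). In vehicle mice Krt20 was 2.44 lower in C3H than in B6 (log2 change of -2.44, adjusted p = 7e-08), and the F1 level lay between them. With slide in the fit this vehicle difference was -1.66 (adjusted p = 0.0897).

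**Figure D3:**
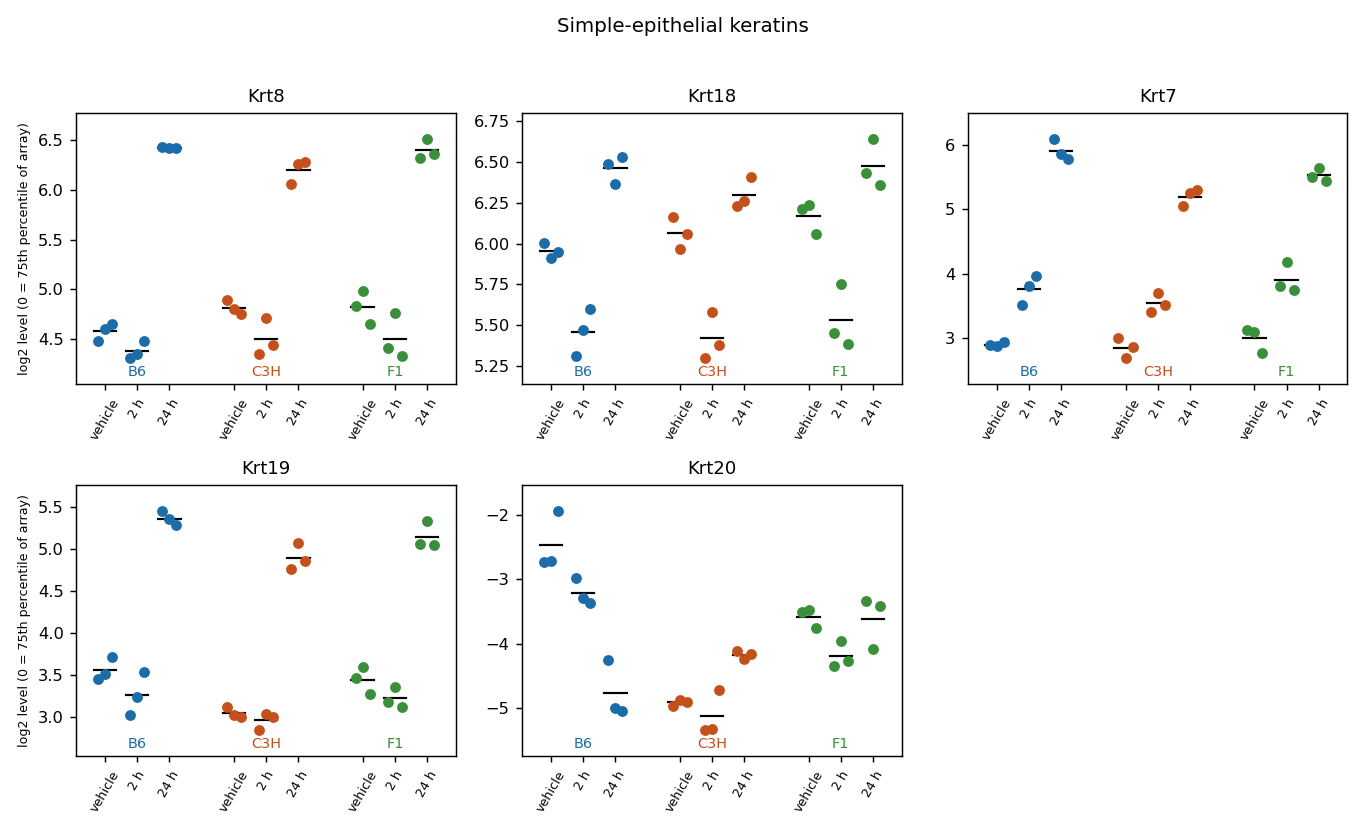
Log2 levels of the 5 simple-epithelial keratins on each array (points) by strain and time, with the group mean as a bar and 0 for the 75th percentile of the array. Krt8, Krt7 and Krt19 are highest at 24 h in each strain, Krt18 dips at 2 h, and Krt20 falls from vehicle to 24 h in B6 and rises in C3H.

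The 250 bases before the start sites of Krt7, Krt8 and Krt18 are shown, as those of the Krt8 and Krt18 pair and of Krt7, whose levels are given above, from RefSeq on GRCm38.p6, with motif matches on either strand in capitals. Krt7 lies at chr15:101412153-101412402 (plus strand), Krt8 at chr15:102004343-102004592 (minus strand) and Krt18 at chr15:102027966-102028215 (plus strand):
Krt7: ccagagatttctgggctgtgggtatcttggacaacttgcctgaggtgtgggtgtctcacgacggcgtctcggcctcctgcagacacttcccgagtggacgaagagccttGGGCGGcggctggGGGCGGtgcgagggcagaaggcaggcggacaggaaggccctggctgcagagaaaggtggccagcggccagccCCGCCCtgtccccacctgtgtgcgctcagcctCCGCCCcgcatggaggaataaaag
Krt8: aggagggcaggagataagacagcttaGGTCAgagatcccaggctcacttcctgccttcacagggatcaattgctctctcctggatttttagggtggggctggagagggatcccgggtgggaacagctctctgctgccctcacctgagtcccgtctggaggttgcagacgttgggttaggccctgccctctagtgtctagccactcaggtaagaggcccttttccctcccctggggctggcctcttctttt
Krt18: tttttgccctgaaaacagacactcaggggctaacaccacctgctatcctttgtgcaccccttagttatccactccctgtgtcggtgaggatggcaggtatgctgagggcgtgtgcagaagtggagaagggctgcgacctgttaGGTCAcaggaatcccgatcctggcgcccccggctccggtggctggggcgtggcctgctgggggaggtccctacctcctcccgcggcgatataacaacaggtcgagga
The capitals mark 4 Sp1 sites before Krt7, reading GGGCGG on 1 strand or the other, and 1 estrogen response motif GGTCA each before Krt8 and Krt18. Over windows from 250 bases before to 50 after the start, 28 of the 43 keratin genes had a RefSeq promoter. The full estrogen response element (GGTCA, any 3 bases, and the same motif on the other strand) was found in 0 of these 28, and in 0.07% of all 32851 promoters. Krt85, Krt86, Krt87, Krt4, Krt19, Krt6a and Krt15 had no promoter entry and were not searched for any motif. The single motif GGTCA, which is contained in the full element, was found in 12 of the 28 keratin genes and in 40.5% of all promoters. The AP-1 site TGANTCA was found in 1, Krt13, against 7.81% of all promoters, and the Sp1 site in 2, Krt7 and Krt75, against 35.7%. Motifs were searched on both strands, and a match is a description of these letters.

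The squamous keratins of the basal layer rose at 24 h in B6, but varied widely between arrays of 1 group. Krt5, the type II basal keratin, had B6 levels of -0.52, 0.06 and -1.57 with vehicle, -0.69, -1.04 and 0.16 at 2 h, and 5.30, 5.09 and 3.21 at 24 h. In C3H it had -1.92, -2.49 and -3.44 with vehicle, and -0.72, 3.77 and -1.70 at 24 h. In F1 it had 0.41, -4.10 and -3.20 with vehicle, and 4.19, 2.64 and -1.91 at 24 h. In B6 every 24 h array lay above all vehicle and 2 h arrays, and the vehicle and 2 h arrays overlapped. In C3H replicate 2 stood far above the other 24 h arrays, and in F1 replicate 3 at 24 h was below replicate 1 of vehicle. Krt5 rose by 5.21 in B6 (SE 1.36, adjusted p = 0.0019) and by 3.94 in F1 (adjusted p = 0.015), and the C3H change of 3.07 did not pass (adjusted p = 0.051). Without F1 24 h replicate 1 the F1 change was 2.66 (adjusted p = 0.106), without C3H 24 h replicate 3 the C3H change was 4.15 (adjusted p = 0.0185), and with slide in the fit the B6 change was 5.62 (adjusted p = 0.0946). The F1 call was also lost without F1 24 h replicate 2 or F1 vehicle replicate 2 or 3 (adjusted p = 0.0564, 0.0811 and 0.0537), and the C3H change was called without C3H 24 h replicate 1 (3.66, adjusted p = 0.0406) and in several fits that left out an F1 array.

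Krt14, the type I partner of Krt5, gave the same order of arrays at 24 h in each strain. Its B6 levels were -2.13, -1.76 and -3.08 with vehicle and 4.11, 3.42 and 1.59 at 24 h. C3H had -2.58, -3.14 and -3.33, then -2.09, 2.49 and -2.91, and in F1 -1.72, -4.44 and -3.71, then 2.75, 1.45 and -2.46. Replicate 2 was the high C3H array and replicate 3 the low F1 array, as for Krt5. Krt14 rose by 5.37 in B6 (SE 1.16, adjusted p = 0.00037) and 3.87 in F1 (adjusted p = 0.006), and the C3H change of 2.18 did not pass (adjusted p = 0.1). Without F1 24 h replicate 1 the F1 change was 2.79 (adjusted p = 0.0513), and without C3H 24 h replicate 3 the C3H change was 3.22 (adjusted p = 0.0285).

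Krt6a, a type II keratin of activated and mucosal keratinocytes, was not well above background on any vehicle array of any strain. Its B6 levels were -8.38, -8.78 and -8.37 with vehicle and 0.56, -0.76 and -2.78 at 24 h. It was at least 66.1-fold higher there (adjusted p = 1.9e-05) and at least 8.56-fold higher in F1 (adjusted p = 0.0028), where the 24 h levels were -1.93, -3.00 and -6.24. In C3H the 24 h levels were -6.61, -1.92 and -8.30, the last not well above background, and the change of 2.02 did not pass (adjusted p = 0.16). Replicate 2 was again the high C3H array. Without C3H 24 h replicate 3 the C3H change was 3.37 (adjusted p = 0.0254). Krt6b, a close relative with a probe of its own, was named after its values were seen, and was at least 17.2-fold higher in B6 and at least 2.82-fold higher in F1. Its B6 call was lost with slide in the fit (4.91, adjusted p = 0.067), and its F1 call without F1 24 h replicate 1 (2.68, adjusted p = 0.066) or with normexp (0.72, adjusted p = 0.151). Krt15, a type I basal keratin named in the same way, rose by 3.20 in B6 (adjusted p = 0.03), while C3H gave 2.82 and F1 2.47 (adjusted p = 0.054 and 0.088). The B6 call of Krt15 was lost without B6 24 h replicate 1 or 2, or B6 vehicle replicate 1 or 3 (adjusted p between 0.0715 and 0.0904), and with slide in the fit (3.74, adjusted p = 0.22).

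Krt13, the type I keratin of mucosal suprabasal layers, rose in all 3 strains at 24 h, by 2.58 in B6, 1.37 in C3H and 1.47 in F1 (SE 0.37 each, adjusted p = 3.1e-06, 0.003 and 0.0015). Its B6 levels at 24 h were 0.82, 0.48 and -0.86. C3H had -1.64, -0.33 and -1.60 at that time, and F1 had -0.14, -0.58 and -1.55. Every one of these was above all 9 vehicle arrays, which ran from -2.64 to -2.02. The second Krt13 probe gave larger changes of the same direction at 24 h, 4.91, 2.73 and 3.79. Krt16 and Krt17, keratins of activated epidermis, rose at 24 h in B6 by 1.91 and 0.84 and in F1 by 1.04 and 0.52. Krt78 was at least 5.34-fold higher in B6 and at least 1.53-fold higher in F1 at 24 h. In C3H, Krt78 gave -8.70, -4.58 and -8.41, with replicate 2 the only array well above background. The F1 call of Krt78 at 24 h was lost in many fits that left out 1 array, with 1.35 (adjusted p = 0.211) without F1 24 h replicate 1.

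Among the 16 squamous keratins the count that rose at 24 h was 11 to 12 in B6, 2 to 8 in C3H and 6 to 11 in F1 when each array was left out in turn. The C3H count of 2 became 8 without C3H 24 h replicate 3, and the F1 count of 10 became 6 without F1 24 h replicate 1. Some markers of squamous epithelium other than keratins varied over the same arrays. Pkp1, which encodes a desmosomal plakophilin, was at -3.90, -1.28 and -4.01 in C3H and at -0.98, -2.17 and -2.70 in F1 at 24 h. Lypd3, a surface protein of squamous cells, was at -5.09, -2.66 and -5.55 in C3H and at -2.21, -3.47 and -4.69 in F1. Col17a1, a basal hemidesmosome collagen, was at -2.69, -0.60 and -3.23 in C3H and at -0.46, -1.47 and -3.51 in F1. Lypd3 and Col17a1 were picked after their values were seen. For these 3 genes, as for Krt5 and Krt14, C3H replicate 2 was the highest C3H array and F1 replicate 3 the lowest F1 array.

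Of the 12 squamous markers listed, 7 were tested, and 5, 3 and 5 rose at 24 h in B6, C3H and F1 (30.7%, 27% and 31.6% of all genes). Their summed signal relative to the array's percentile was 9.49 to 11.1 on vehicle arrays, 18.4 to 20.6 in B6, 14.4 to 16.0 in C3H and 16.4 to 18.2 in F1 at 24 h. The mean log2 level of the 7 genes varied more between arrays. In B6 it was 0.31, -0.09 and -1.06 at 24 h, against -2.28 to -1.80 with vehicle. C3H gave -1.96, -0.61 and -2.14 against -2.51 to -2.42, and F1 gave -0.45, -1.06 and -1.88 against -2.69 to -1.69. Flg and Dsc3 were well above background on 0 of 27 arrays, Dsg3 and Dsg1a on 1 and Ivl on 7. Trp63, the p63 transcription factor of basal cells, gave 0.02, 0.03 and -0.08 at 24 h and passed in no strain, while at 2 h it fell by 0.77, 2.24 and 1.69. The part of these squamous markers in the keratin changes was not tested.

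**Figure D4:**
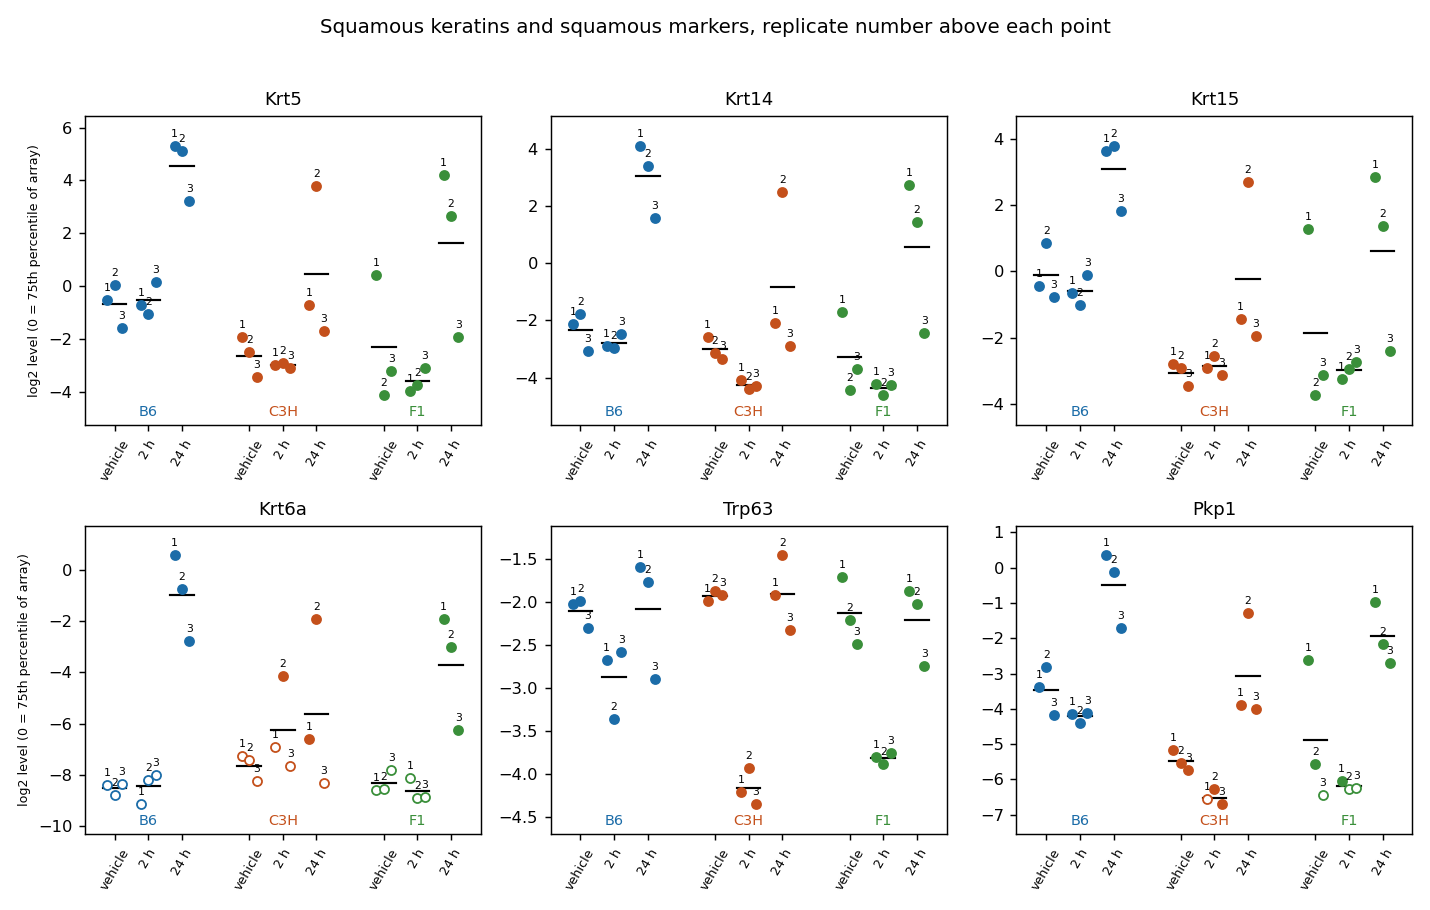
Log2 levels of Krt5, Krt14, Krt15, Krt6a and of the squamous markers Trp63 and Pkp1 on each array (points, with the replicate number), with the group mean as a bar and open points for arrays not well above background. At 24 h the highest C3H array is replicate 2 and the lowest F1 array is replicate 3 in all 6 panels.

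A few squamous keratins fell. Krt2, a type II keratin of cornifying epidermis, fell at 24 h by 2.29 in C3H and 1.31 in F1 (SE 0.29 each, adjusted p = 9.3e-07 and 0.00052), and B6 gave -0.60 (adjusted p = 0.076). Its levels went from -4.51, -4.77 and -4.92 to -6.70, -7.56 and -6.82 in C3H, with no overlap. At 2 h Krt2 fell by 0.99 in C3H and by 1.08 in F1 (adjusted p = 0.0064 and 0.0033). The C3H call at 2 h was lost without C3H 2 h replicate 2 (-0.72, adjusted p = 0.0537). At 24 h a dimmer second Krt2 probe, which did not pass the filter, gave 0.62, 0.21 and 0.41. Krt10, a suprabasal type I keratin, fell at 2 h by 0.40, 0.40 and 0.51 in B6, C3H and F1, and at 24 h by 0.25 in F1 (adjusted p = 0.033). A second Krt10 probe gave 0.25, 0.63 and 0.04 at 2 h. At 24 h it gave 0.81, 1.28 and 1.48 against 0.09, -0.07 and -0.25 for the probe used, so the direction of Krt10 is uncertain at both times. Krt9 passed in no strain at either time, and Krt42 was well above background on 0 of 27 arrays.

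Krt12, a type I keratin best known from the cornea, rose at 24 h in every strain by 3.66, 3.41 and 2.72 (SE 0.31 each, adjusted p = 1.7e-09, 8.1e-09 and 1.5e-07). Its levels went from -5.53, -4.92 and -5.18 to -1.03, -1.61 and -2.0 in B6, from -3.70, -4.41 and -4.75 to -1.02, -0.90 and -0.71 in C3H, and from -2.91, -2.63 and -3.84 to -0.53, -0.30 and -0.39 in F1. The groups did not overlap in any strain. At 2 h Krt12 fell by 1.12 in B6 and by 0.92 in F1 (adjusted p = 0.0043 and 0.015), and C3H gave -0.52 (adjusted p = 0.16). The F1 call at 2 h was lost with slide in the fit (-0.21, adjusted p = 0.677) and the B6 call with normexp (-0.39, adjusted p = 0.0958). A second Krt12 probe gave -1.92, -0.25 and -0.52 at 24 h. That probe lies on the plus strand at chr11:99533909-99533968 of mm7, opposite to the probe used and to the RefSeq strand of Krt12. Krt1 was the only other keratin with probes on both strands. Its brighter probe, the one used, lies on the plus strand at chr15:101834630-101834689, while the second lies on the minus strand. Its levels in C3H were -3.99, -4.08 and -4.09 with vehicle and -4.65, -5.12 and -5.24 at 24 h. The used probe fell by 0.95 in C3H at 24 h, whereas the second gave 0.84, 0.51 and 0.25 in B6, C3H and F1, so the Krt1 values are uncertain.

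The inner root sheath keratins gave small and dim changes except Krt75. Krt75, a type II keratin of the companion layer of the hair follicle, rose at 24 h by 2.21 in B6, 1.23 in C3H and 2.24 in F1 (SE 0.22 each, adjusted p = 1.2e-08, 4.3e-05 and 1.2e-08). Its levels went from -6.03, -5.60 and -6.06 to -3.89, -3.34 and -3.83 in B6, from -5.73, -5.52 and -5.83 to -4.30, -4.86 and -4.24 in C3H, and from -6.36, -5.66 and -5.72 to -3.32, -3.68 and -4.03 in F1, with no overlap. Krt25 was not well above background with vehicle in B6 or F1, and was at -6.49, -6.11 and -6.57 at 24 h in B6 and at -6.31, -5.94 and -6.71 in F1. It was at least 1.57-fold higher in B6 and at least 1.42-fold higher in F1 at 24 h. Krt28 was at -6.46, -6.09 and -6.57 with vehicle and at -6.73, -7.68 and -7.17 at 24 h in C3H. At 2 h it was at least 1.2-fold higher in B6 and at least 1.70-fold higher in F1. At 24 h it was at least 1.16-fold higher in B6 and fell by 0.82 in C3H (adjusted p = 0.009 and 0.024). With slide in the fit the Krt28 calls in B6 at 24 h (1.14, adjusted p = 0.0847) and in F1 at 2 h (0.66, adjusted p = 0.185) were lost. With normexp none of its B6 and F1 changes was called, and with quantile normalization the C3H change was -0.34 (adjusted p = 0.298). Krt71 passed in no strain, and Krt26 and Krt27 were well above background on 0 of 27 arrays.

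Of the 3 other members, Krt23, a type I keratin of glandular epithelia, rose at 2 h by 0.41, 0.58 and 0.65 in B6, C3H and F1. Its B6 vehicle levels were 0.26, 0.28 and 0.19, against 1.48 to 1.54 in C3H and 1.29, 1.26 and 1.04 in F1. Krt80 rose in B6 alone, by 0.41 at 2 h and 0.50 at 24 h. Krt222 was called lower at 2 h in C3H and F1. It was well above background on 2 of 3 vehicle and 1 of 3 E2 arrays in C3H, where the change was -1.09, and on 1 of 3 and 0 of 3 in F1, for which no size is given.

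The keratin genes lay in 2 clusters, 24 on chromosome 11 and 19 on chromosome 15. The chromosome 11 members are type I keratins, and the chromosome 15 members are type II except Krt18. At 24 h, 15 of 18 tested members on chromosome 15 rose in B6, 8 in C3H and 13 in F1, with median changes of 2.22, 1.12 and 2.11. On chromosome 11, 12 of 19 rose in B6, 4 in C3H and 9 in F1, with medians of 0.84, 0.20 and 0.49. At 2 h, 7, 9 and 9 rose on chromosome 15 and 2 on chromosome 11 in each strain. Of all genes tested, 30.7%, 27% and 31.6% rose at 24 h and 22.7%, 23.9% and 22.8% at 2 h. The chromosome 11 counts at 2 h, and in C3H at 24 h, were below these shares, and the other counts were above them. The difference between the clusters was not tested.

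Some keratins differed between strains before E2. In vehicle mice 11 of 37 differed between C3H and B6 (24.3% of all genes did), 8 between F1 and B6 (12.6%) and 8 between F1 and C3H (14.3%). Krt23 was higher than in B6 by 1.26 in C3H and by 0.95 in F1 (SE 0.11 each, adjusted p = 2.4e-08 and 6.1e-06), and by 1.47 in C3H with slide in the fit. Krt85 was at least 5.81-fold higher in C3H and at least 5.5-fold higher in F1 than in B6, where it was not above background. C3H vehicle and B6 vehicle shared no slide. They were linked only through the B6 arrays at 24 h and 2 h, with B6 24 h replicate 3 the only B6 array on the C3H vehicle slide. With slide in the fit, which rests on that link, the C3H difference in Krt85 was 3.09 (adjusted p = 0.0555). In that fit 2 of the 11 C3H differences, those of Krt23 and Krt25, were called. With normexp background correction the 3 counts were 6, 4 and 4. F1 vehicle shared no slide with B6 vehicle and could not be set against B6 or C3H with slide in the fit, so slide and strain cannot be told apart in the F1 differences.

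The early response differed between strains in few keratins. At 2 h, 3 differed between C3H and B6 (2.26% of all genes), 2 between F1 and B6 (0.64%) and 1 between F1 and C3H (0.224%). Where C3H enters, slide and strain cannot be told apart, since its vehicle and 2 h arrays shared no slide. The smaller fitted Krt85 response in C3H and F1, by 3.46 and 3.25, rests on B6 vehicle levels at background and was -0.77 and -0.61 with normexp background correction (adjusted p = 0.0945 and 0.291). Without Krt85, the C3H and B6 difference was left to Krt87 (-1.18, SE 0.29, adjusted p = 0.032) and the uncertain Krt1. The Krt87 difference was not called with array medians, the unscaled signal or normexp (adjusted p = 0.0576, 0.0723 and 0.0587).

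At 24 h the response of 19 keratins differed between C3H and B6 (51.4% of the 37, against 18.9% of all genes), 18 of them lower in C3H (13.2% of all genes were). It was 11 with the unscaled signal and 12 when only the 4 groups compared entered the fit, and 13 to 22 when each array was left out in turn. Vehicle and 24 h arrays shared no slide in C3H or in F1. Slide and strain therefore cannot be told apart in any of the 24 h response differences. Krt86 and Krt87 rose by 1.68 and 1.86 less in C3H than in B6 (SE 0.26 and 0.29, adjusted p = 0.00024 each). Krt7 and Krt8 rose by 0.66 and 0.46 less in C3H (adjusted p = 0.019 and 0.04), but with quantile normalization neither difference was called (-0.49 and -0.29, adjusted p = 0.0886 and 0.282). The Krt6a difference of -5.49 (adjusted p = 0.035) was lost when any 1 of 8 arrays was left out, and it rests on vehicle levels at background in both strains. For Krt5 and Krt14 no difference in response between strains was called. In F1 the response differed from that of B6 in 3 keratins, Krt85, Krt86 and Krt20 (2.03% of all genes), and from that of C3H in 4, Krt1, Krt25, Krt76 and Krt84 (3.81%). These comparisons share the vehicle and E2 arrays of each strain.

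From 2 h to 24 h, 24 of 37 keratins changed in B6, 22 in C3H and 27 in F1 (68.7%, 70.4% and 68.6% of all genes). In F1 the 2 h and 24 h arrays lay on different slides, so that slide and time cannot be told apart there. The 3 hair keratins Krt85, Krt86 and Krt87 and Krt4 fell over this time in every strain, while Krt7, Krt8, Krt18 and Krt19 rose in every strain.

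Genes whose products anchor keratin filaments were taken from a list of 22 desmosome, hemidesmosome and plakin genes, of which 17 were tested. At 24 h, 10, 11 and 12 rose in B6, C3H and F1 and 1 fell in each, with medians of 0.73, 0.37 and 0.41. Pkp1 rose most, by 2.96, 2.42 and 2.92, and Perp, a desmosomal membrane protein, by 1.86, 1.61 and 1.65. Dst, a plakin of the hemidesmosome, fell by 1.52, 1.25 and 1.26. Of all genes tested, 30.7%, 27% and 31.6% rose and 37.3%, 40.3% and 37% fell at 24 h in B6, C3H and F1. These shares also stand beside the 24 h counts of the lists below. Of 10 uterine epithelial genes 7, 6 and 6 rose at 24 h and 3 fell in each strain, Muc1 rising by 3.16, 3.01 and 3.90. The 3 that fell were Wnt7a, Foxa2 and Msx1. The list's summed signal was 33.7 to 42.1 on vehicle arrays, 23.4 to 38.2 at 2 h and 52.5 to 79.4 at 24 h, and its part in the rise of Krt7, Krt8 and Krt19 was not tested. Of 6 smooth muscle genes, 5, 5 and 6 rose at 24 h in B6, C3H and F1, and their summed signal was 475 to 647 on vehicle arrays and 716 to 853 at 24 h. Of 8 stromal genes, 6 fell at 2 h in each strain (34.1%, 37.2% and 37% of all genes in B6, C3H and F1). The summed stromal signal was 87.7 to 112 on vehicle arrays, 53.8 to 76.0 at 2 h and 182 to 221 at 24 h. The mean log2 level of the 8 genes changed little from vehicle to 24 h. It was 2.74 to 3.02 with vehicle, 1.88 to 2.30 at 2 h and 2.91 to 3.14 at 24 h, since the brightest genes weigh most in the sum. Of 16 other intermediate filament genes, 14 were tested and 8, 7 and 8 rose at 24 h. Of 17 genes for regulators and cornification enzymes, 16 were tested and 7 rose at 24 h in each strain. Elf3, an epithelial transcription factor, rose by 2.76, 2.66 and 2.60, and Gata3, another transcription factor, fell by 1.45, 1.40 and 1.30.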

How the data were processed

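Whole-uterus RNA was hybridised to 1-colour Agilent mouse arrays and scanned with Agilent Feature Extraction 9.5.3.1, per the file headers. The authors deposited each spot's processed intensity, already background-corrected by that software per the file headers. A value table of the same arrays, whose scale and centring are not stated, equalled these intensities on every array. It was not used for the results. From the deposited intensities, log2 signals were computed relative to each array's 75th percentile, leaving out control and outlier spots. Probes that stood well above background on every array of some group were kept (32901 of 41174), and the kept probe with the highest mean signal stood for its gene. One limma 3.58.1 model over the 9 groups gave 18 comparisons, with Benjamini-Hochberg adjusted p under 0.05 over 21871 genes as the threshold. Where no array of a group was well above background, a bound ("at least N-fold") is given against the dimmest probes above background. Keratins given array by array changed at least 2-fold alike in all 3 strains, or differed between strains in level or response, up to 25, with Krt5, Krt7, Krt8, Krt14, Krt18 and Krt19 always included. From other lists, at most the 2 genes with the largest change each way and absent defining markers were named, and others where stated.

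The members and lists were chosen with earlier results of these data known. Replicate numbers did not pair samples: deviations of same-numbered arrays correlated between -0.124 and 0.170. Alternatives were other scalings, background corrections, probe filters, slide and replicate terms, fits to the compared groups alone and leaving out each array. On simulated data for B6 at 2 h against vehicle (21825 genes), 156 of 200 changed genes were recovered, with 6 false calls. Promoters were taken from RefSeq on GRCm38.p6.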

Additional observations from a re-analysis of the deposited data

Results flagged for a closer look

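Keratins whose response to E2 differed between strains, by the interaction term of the limma fit, were singled out, and each value is the response in the first strain minus that in the second (log2). At 2 h, C3H minus B6 was -0.93 for Krt1, -3.46 for Krt85 and -1.18 for Krt87. F1 minus B6 at 2 h was 1.23 for Krt76 and -3.25 for Krt85, and F1 minus C3H was 1.26 for Krt76. Krt76 was well above background on 0 of 3 F1 vehicle arrays, and with slide in the fit its F1 minus B6 value was 1.38 (adjusted p = 0.168).

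At 24 h, C3H minus B6 was positive for Krt20 alone, at 3.04. Among hair keratins it was -4.64 for Krt85, -1.68 for Krt86, -1.86 for Krt87, -1.22 for Krt84, -2.12 for Krt33b and -0.93 for Krt36. Among squamous keratins it was -5.49 for Krt6a, -3.65 for Krt78, -1.69 for Krt2, -1.16 for Krt1 and -0.85 for Krt76. The simple keratins Krt7 and Krt8 gave -0.66 and -0.46, the inner root sheath keratins Krt25, Krt28 and Krt75 gave -2.29, -1.78 and -0.98, and Krt23 and Krt80 gave -0.71 and -0.67. F1 minus B6 at 24 h was 2.27 for Krt20, -4.02 for Krt85 and -1.08 for Krt86. F1 minus C3H was 1.03 for Krt1, 1.85 for Krt25, 1.15 for Krt76 and 1.83 for Krt84. Krt85, Krt6a, Krt78, Krt33b, Krt25 and Krt28 were not well above background on any B6 vehicle array, so their values against B6 rest on background signal. Krt25 and Krt76 were not above it on any F1 vehicle array either.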

How the results depend on the processing

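Counts of keratins are given with the reported count in brackets. With slide in the fit, 3 fell in B6 and 3 in F1 at 2 h (5 and 8), vehicle C3H and B6 differed in 2 (11), and the 2 h response of F1 and B6 in 0 (2). With quantile normalization 5 fell in C3H at 2 h (8) and 2 at 24 h (4), the F1 response differed in 1 from B6 (2) and 0 from C3H (1) at 2 h and in 2 from C3H at 24 h (4), and 6 squamous keratins rose in C3H at 24 h (2). With array medians 5 fell in C3H and 5 in F1 at 2 h (8 each) and 1 in F1 at 24 h (3), the C3H and B6 response differed in 1 at 2 h (3), and 5 squamous rose in C3H (2). Unscaled, 3 fell in C3H and 3 in F1 at 2 h, 1 in F1 at 24 h, responses differed in 1 (C3H and B6) and 0 (F1 and C3H) at 2 h and 11 (C3H and B6) at 24 h (19), and 4 squamous rose in C3H. With normexp 7 fell in C3H at 24 h, vehicle differences were 6, 4 and 4 (11, 8 and 8), and the F1 response differed in 0 from B6 and 0 from C3H at 2 h and 1 from C3H at 24 h. It used each array's median background, chosen after seeing the data, since the planned local background could not be fitted on 7 arrays. Fits to the compared groups alone gave 3 falling in B6 at 24 h (1), 4 vehicle differences of F1 and B6 (8), and response differences of 0 (F1 and B6, 2 h), 12 (C3H and B6, 24 h) and 1 (F1 and B6, 24 h; 3). With a replicate block 2 fell in B6 at 24 h (1) and 4 squamous keratins rose in C3H (2), but the numbers do not pair samples. The only reversal was Krt12 in vehicle C3H against B6, -0.73 with the mean of kept probes (0.92).

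Leaving out each array, risen and fallen keratins ranged over 9 to 10 and 3 to 6 (B6), 10 to 12 and 5 to 8 (C3H), and 9 to 11 and 4 to 8 (F1) at 2 h, and 26 to 27 and 1 to 1, 11 to 17 and 3 to 7, and 16 to 23 and 1 to 3 at 24 h. From 2 h to 24 h the ranges were 22 to 25, 19 to 24 and 22 to 29, for vehicle differences 8 to 11, 5 to 9 and 5 to 10, for 2 h responses 1 to 3, 1 to 3 and 0 to 2, and for 24 h responses 13 to 22, 2 to 4 and 2 to 7. Squamous keratins risen ranged over 11 to 12, 2 to 8 and 6 to 11. Where a cause is not given, it was not tested.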
